A study of Mus musculus with 18 samples.

Results

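The transcripts described here are RNAs of protein-coding genes that the GENCODE M21 annotation of the mouse genome GRCm38 classes as targets of nonsense-mediated decay (NMD), because their reading frame ends early. Members were NMD transcripts of at least 200 nt in protein-coding genes other than Ptbp1 whose transcripts summed to a mean of 10 TPM or more over the 18 libraries. TPM is an abundance scaled to library size and corrected for transcript length. The rule took 3531 transcripts in 2083 genes, of 136288 transcripts in the files and of 6317 protein-coding genes at that level. The value followed is the NMD share, the percent of a gene's TPM that its NMD transcripts held in a library. Members were chosen by the measured mean TPM of the gene, and neither shares nor contrasts between groups entered the rule. Most of the 18 libraries came from progenitors, so this mean favours genes that are high in progenitors. Arv1 and Pcsk7 lay just inside the minimum, with gene means of 10.02 and 10.03 TPM, and Fzd6 and Bbs5 just outside, with 9.987 and 9.989 TPM.

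NMD is a surveillance pathway that destroys mRNAs on which the ribosome stops well before the last exon junction. A junction downstream of the stop keeps its protein complex, and the UPF and SMG factors then act on the RNA. Many splicing factors hold their own levels through this route, by including a poison exon or leaving out a coding exon in part of their RNA. PTBP1 is an RNA-binding protein that mostly represses exons, and its best known decay target is the RNA of its relative PTBP2. A measured share depends both on how often such an RNA is made and on how fast it is destroyed.

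The study sorted 3 populations from the bone marrow of C57BL/6 mice. HSCs, hematopoietic stem cells, were taken as cells with Sca-1, c-kit and CD150 on their surface and without CD48 or lineage markers. PreMegEs are progenitors of megakaryocytes and red cells and preCFU-Es are committed red-cell progenitors; both carried c-kit and CD150 and lacked lineage markers, Sca-1, CD41 and FcgRII/III, and CD105 was absent from the first and present on the second. Each population came from Ptbp1 fl/fl mice, called WT here, and from Ptbp1 KO mice, with 3 libraries per genotype that the series calls biological replicates. WT cells thus carry the floxed alleles, and the labels do not give the Cre driver, the age of the mice or whether animals were pooled. The p-values below measure the spread between libraries within groups. Except where a population was fitted alone, that spread was pooled over all 6 groups, so an HSC comparison also draws on progenitor libraries.

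Ptbp1 itself had means of 208 CPM (counts scaled to library size) in WT and 98.1 CPM in KO HSC. The pairs were 693 and 203 CPM for preMegE, and 1244 and 306 CPM for preCFU-E. Summed over 7 HSC markers, libraries held 1235 to 1625 CPM in HSC, 294 to 363 in preMegE and 21.2 to 29.9 in preCFU-E. The 7 preCFU-E markers summed to 55.4 to 114, 1201 to 1424 and 5091 to 6354 CPM. Most of the last sum was Car1, with a mean of 5045 CPM in WT preCFU-E. Slc4a1, also on that list, went the other way, with 7.73 ± 8.06 CPM (SD) in WT HSC and 0.412 ± 0.300 in WT preCFU-E. Of the lists for other cells, 6 granulocyte and monocyte genes reached 35.7 to 67.5 CPM and 3 measured T and NK cell genes 204 to 275 CPM in preMegE; Nkg7 had a mean of 243 and Lck of 0.708 CPM in WT preMegE. Xist was high in all 6 HSC libraries and near 0 in the 12 progenitor libraries, and Eif2s3y, a Y-linked gene, showed the reverse, so population and sex cannot be told apart. Estimated reads were 15956408 to 29226287 per library, of which NMD members held 344033 to 783741. Reads from mitochondrial rRNA genes were 24.0% to 33.5% of each HSC library, against 14.2% to 25.8% for preMegE and 12.7% to 28.8% for preCFU-E. The part of these differences in the results was not tested.

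Member transcripts were short, with a median of 943 nt against 2737 nt for the leading protein-coding transcript of their genes. The stop codon was TGA in 1985, TAA in 848 and TAG in 697. It lay 50 nt or more before the last exon junction in 3506, which is part of how the class is annotated. Compared with the leading coding transcript, the difference nearest upstream of the stop was another splice site in 1235 members, a skipped exon in 946 and an extra exon in 884. Of the skipped exons 877 had a length that is not a multiple of 3, so that the frame shifts. Of the extra exons 744 held the stop. In 1165 members the annotated frame lacked a start codon, so these models are incomplete at their 5′ end.

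The sequences below show how members reach their stop. Each is the end of the reading frame of an NMD transcript, the stop codon in capitals after the coding bases before it, 5′ to 3′ on the strand of the gene, from the GENCODE M21 transcripts (GRCm38). The first 3 belong to members whose share differed between KO and WT HSC, and the other 7 to members that changed between HSC and preMegE, chosen after their values were seen. Fam118b-208 has an extra exon of 141 nt at chr9:35237723-35237863 (minus strand). 1700037H04Rik-207 has an extra exon of 102 nt at chr2:131149441-131149542 (minus strand), and Mpp1-204 one of 88 nt at chrX:75129293-75129380 (minus strand). In these 3 the stop lies inside the extra exon. Tra2a-202 holds a poison exon of 306 nt at chr6:49252803-49253108 (minus strand) and Tial1-205 an extra exon of 68 nt at chr7:128446731-128446798 (minus strand), again with the stop inside. Bak1-201 holds an extra exon of 20 nt at chr17:27021663-27021682 (minus strand), and its stop lies beyond that exon. Hnrnph3-204 lacks an exon of 139 nt at chr10:63018760-63018898 (minus strand), Srpk1-201 one of 214 nt at chr17:28600243-28600456 (minus strand) and Eif4a2-210 one of 140 nt at chr16:23109120-23109259 (plus strand); Hnrnph3-204 and Eif4a2-210 also differ from the coding transcript at other splice sites. Ddx5-208 keeps an intron of 1265 nt at chr11:106782694-106783958 (minus strand), inside which its frame ends.
Fam118b-208: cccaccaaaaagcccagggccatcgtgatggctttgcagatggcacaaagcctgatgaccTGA
1700037H04Rik-207: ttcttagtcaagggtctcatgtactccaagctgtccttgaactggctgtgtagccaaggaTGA
Mpp1-204: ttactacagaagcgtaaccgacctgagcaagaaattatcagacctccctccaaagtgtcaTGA
Tra2a-202: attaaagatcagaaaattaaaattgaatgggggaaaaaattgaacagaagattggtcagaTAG
Tial1-205: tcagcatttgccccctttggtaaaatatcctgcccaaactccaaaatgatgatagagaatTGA
Bak1-201: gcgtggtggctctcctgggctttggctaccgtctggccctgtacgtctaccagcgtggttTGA
Hnrnph3-204: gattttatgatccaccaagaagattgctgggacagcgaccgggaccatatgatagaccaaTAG
Srpk1-201: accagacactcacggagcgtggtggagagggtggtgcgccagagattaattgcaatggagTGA
Eif4a2-210: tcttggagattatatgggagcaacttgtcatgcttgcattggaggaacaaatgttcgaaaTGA
Ddx5-208: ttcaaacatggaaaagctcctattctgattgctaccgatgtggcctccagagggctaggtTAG

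The quantifier, Salmon, divides reads among transcripts that share sequence, and an exact 0 is a product of that division. Of the 31-base words in the main NMD transcript, 34.3% were in no other transcript for Mpp1, 19.8% for Ddx5 and 16.2% for Tra2a. This percent was 3.12% for Srsf1, 2.37% for Bak1, 0.954% for Atp9b and 0.0753% for 1700037H04Rik. It was 0% for Eif4a2-210, Luc7l2-202, Srsf2-204, Vkorc1l1-205 and Rfx5-212. Words that also occur in transcripts of other genes made up 83.1% of Eif4a1-201, 78.5% of Rpsa-206, 84.7% of Rpl13a-205, 59.2% of Rps12-204 and 69.01% of Gtpbp10-207, much of it in pseudogenes or predicted genes. They made up 71.2% of Srsf2-204, mostly in Mettl23. They made up 43.5% of Vkorc1l1-205, 33.4% of Ddx5-208, 31.9% of Ap1ar-202, 29.6% of Eif4a2-210, 28.6% of Becn1-201 and 23.6% of Ndufs6-202. The shares of these genes, and of genes whose main NMD transcript has few or no words of its own, are uncertain for these reasons.

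Most members held a small part of their gene. The median of the mean share over 18 libraries was 4.47%; 323 of the 2083 genes had 20% or more and 72 had 50% or more. A mean share under 2% was found in 688 genes, of which 72 were at 0 in all libraries, and 3 genes were over 98%, which left 1392 genes to test. The annotated NMD transcript of Pggt1b, a subunit of a protein prenylation enzyme, held its whole gene in every library. Glo1, glyoxalase I, had a mean of 89.8% and a lowest value of 44.1%, and Commd2 a mean of 87.1%. Slc4a7, a sodium bicarbonate cotransporter, had the most NMD transcripts, 18.

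Over the 6 groups the mean share of tested members was highest in HSC in both genotypes. It was 15.9% ± 0.122 (SD, n = 3) in WT HSC, 14.03% ± 0.555 in WT preMegE and 13.4% ± 0.221 in WT preCFU-E. In KO it was 16.4% ± 0.989, 14.2% ± 0.722 and 13.3% ± 0.270. Every HSC library, at 15.6% or more, lay above every progenitor library, at 15.0% or less. Other non-coding classes differed more between populations. Retained-intron transcripts held 28.5% ± 0.677 in WT HSC, 14.1% ± 1.67 in WT preMegE and 11.4% ± 1.76 in WT preCFU-E. Processed transcripts, a class without a reading frame, held 24.3% ± 0.476, 16.3% ± 1.04 and 14.2% ± 1.02.

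**Figure D1:**
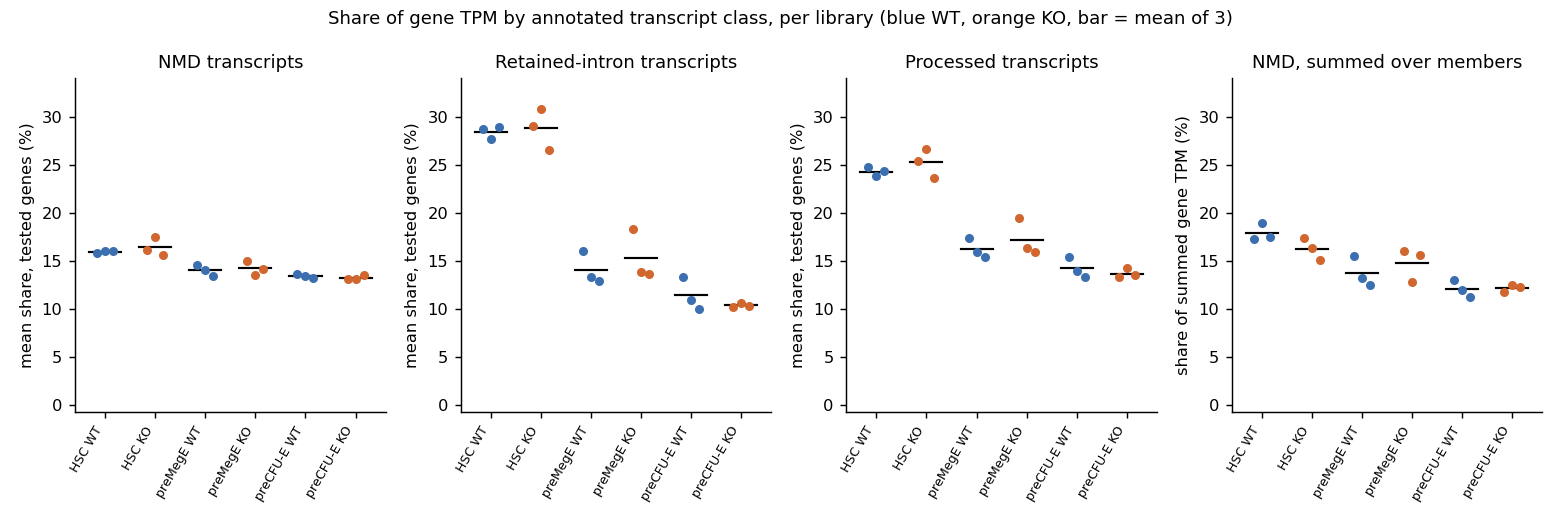
Share of gene TPM in percent (vertical axis) in each library by group, as the mean over tested genes for NMD, retained-intron and processed transcripts and, in the last panel, as NMD TPM over gene TPM summed over the 2083 member genes; blue points are WT, orange points KO and bars the mean of 3 libraries. The NMD mean lies between 13.1% and 17.5% in all libraries, while the retained-intron mean spans 9.98% to 30.9%.

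With TPM summed over all member genes, NMD transcripts held 15.1% to 19.0% in HSC, 12.5% to 16.0% in preMegE and 11.2% to 13.1% in preCFU-E. Lars2-209, from the gene of mitochondrial leucyl-tRNA synthetase, carried much of this: it had a mean of 3876 TPM and held 28.6% to 43.1% of member NMD TPM in HSC and 14.5% to 29.7% in the progenitors. Without Lars2 the summed share was 11.3% to 11.98% in HSC, 10.2% to 11.9% in preMegE and 9.78% to 10.6% in preCFU-E. HSC and preMegE libraries overlapped with Lars2 and without it. The Lars2 share was 97.9% to 99.8% throughout, and only 0.939% of the words of Lars2-209 were its own. Of its words 1.13% also occur in transcripts of AA474408 or Gm15564. Whether reads of other origin add to its level was not tested.

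Shares were tested in 1 limma fit on the logit scale together with retained-intron and processed transcripts. A share was called at an adjusted p below 0.05 with a difference of at least 10 percentage points. The step from WT HSC to WT preMegE asks how NMD transcripts differ between a stem cell and a committed progenitor. In this step 96 members rose and 122 fell, 15.7% of the members tested beside 29.1% of all rows in the fit (2.92% higher and 26.2% lower). Without preMegE WT library 3 the count was 142. The median difference was 23.6 points among members that rose and -19.7 points among those that fell, and -2.10 points over all tested members. Retained-intron transcripts were called lower in 1442 rows and higher in 38, and processed transcripts lower in 435 and higher in 89. Of NMD members 6.9% were called higher, beside 0.997% of retained-intron and 3.66% of processed rows. In bulk samples fewer cells of a type and less RNA per cell cannot be told apart, here or below.

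By the structure of the main NMD transcript, members with an extra exon fell 35 times and rose 14 times of 402 tested. Members with a skipped exon fell 27 times and rose 30 times of 348, and those with another splice site fell 46 times and rose 43 times of 466. Of 19 members with a retained intron 4 fell and 0 rose, and of 55 with another first exon 4 rose and 0 fell. Over all members tested 6.9% were called higher and 8.76% lower, beside 2.92% and 26.2% of all rows. The counts by structure were not tested against each other.

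SR proteins bind exons and recruit the spliceosome. Of 25 SR proteins and partners 21 were members and 18 were tested; 3 fell, 1 rose, and the median difference was -2.84 points beside -2.10 for all members tested. Srsf1, an SR protein, had a share of 39.6%, 43.4% and 45.1% in the WT HSC libraries and of 3.29%, 2.21% and 1.75% in WT preMegE. All HSC values were more than 10 times the preMegE values: the difference was -40.3 points (logit -3.09, SE 0.248, adjusted p = 1.84e-06). Its NMD TPM was 70.1 ± 8.86 in HSC and 2.795 ± 0.271 in preMegE, while the count of the whole gene rose by 0.81 on the log2 scale (edgeR adjusted p = 0.00124).

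Tra2a, a splicing activator with the poison exon located above, had 35.8%, 29.4% and 46.6% in WT HSC and 4.21%, 4.76% and 5.19% in WT preMegE (adjusted p = 0.00025). Srsf2, another SR protein, had 14.7%, 17.03% and 25.5% against 4.98%, 3.12% and 2.39% (adjusted p = 0.00141). In both genes the lowest HSC library lay above the highest preMegE library. Srpk1, the kinase that phosphorylates SR proteins, went the other way. Its share was 0% in all 3 WT HSC libraries and 7.497%, 8.97% and 14.3% in WT preMegE (adjusted p = 0.000464), and it lost its call without preMegE WT library 3. Tra2b, with -5.56 points (adjusted p = 0.0266), and Clk2, with -6.804 points (adjusted p = 0.0491), stayed under the 10-point minimum. Clk1, a kinase of SR proteins, had 22.6% ± 5.44 in WT HSC and 20.5% ± 5.86 in WT preMegE.

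Of 44 hnRNP and related RNA-binding proteins 18 were tested; 3 rose and 1 fell, with a median of -0.91 points. Hnrnph3, a splicing regulator, had 39.6%, 30.02% and 26.2% in WT HSC and 61.7%, 60.7% and 58.1% in WT preMegE (adjusted p = 0.00856). The groups did not overlap, and the position of the exon its NMD transcript lacks is given above. Rbm5, a splicing regulator, rose from 9.21% ± 4.35 to 32.6% ± 3.38 and Hnrnpu, a nuclear scaffold protein, from 52.5% ± 1.84 to 69.5% ± 1.61 (adjusted p = 0.03 and 0.03). With 1 of the 6 libraries left out, Rbm5 stayed called only without HSC WT library 2 and Hnrnpu only without HSC WT library 1. Tial1, an RNA-binding protein of stress granules, fell from 21.8% ± 4.91 to 7.19% ± 1.17. Hnrnpa1 and Rbm3 had differences of -7.65 and -6.81 points (adjusted p = 0.0321 and 0.0013), under the minimum.

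Of 13 tested core spliceosome genes 3 fell and 1 rose, with a median of -8.47 points. Ddx5, an RNA helicase, had 24.5%, 19.98% and 20.3% in WT HSC and 3.81%, 4.35% and 4.52% in WT preMegE (adjusted p = 0.000354). Its main NMD transcript keeps an intron, and of the retained-intron rows 1442 of 3812 were called lower and 38 higher. Luc7l2, a protein of the U1 particle, fell from 17.8% ± 2.15 to 7.65% ± 2.16, and its paralog Luc7l rose from 3.38% ± 1.79 to 27.2% ± 10.3. Luc7l2 lost its call without HSC WT library 3 or preMegE WT library 3.

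Of 5 tested translation genes 2 rose and none fell. Eif4a1, the helicase of the initiation complex, had 0.395%, 0.5199% and 0.402% in WT HSC and 29.8%, 32.2% and 37.7% in WT preMegE (logit 3.56, SE 0.227, adjusted p = 1.03e-07). Its paralog Eif4a2 had 27.3%, 23.4% and 26.4% in WT HSC and 58.4%, 62.2% and 59.6% in WT preMegE (adjusted p = 0.000911). Replicates lay close together in both genes and the populations far apart. The Eif4a1 gene count was higher in preMegE by 1.04 on the log2 scale (edgeR adjusted p = 1.05e-05), and the log2 change of Eif4a2 was -0.61 (edgeR adjusted p = 0.00251).

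Of 7 tested ribosomal protein genes 3 fell and none rose, with a median of -11.1 points. Rpsa, of the small subunit, had 78.5%, 82.1% and 78.2% in WT HSC and 51.2%, 46.6% and 37.9% in WT preMegE (adjusted p = 0.000588). Its NMD TPM was 349 ± 29.8 in HSC and 454 ± 99.1 in preMegE, while the TPM of the gene was 438 ± 25.9 and 1024 ± 278, so the level of the NMD transcript did not move down with the share. Rpl13a, of the large subunit, fell from 64.7% ± 4.90 to 26.0% ± 6.11 and Rps12 from 35.6% ± 14.6 to 9.31% ± 0.425. Of 27 NMD factors 5 were members and 2 were tested, Smg5 and Magohb, with differences of 3.27 and 6.57 points that did not pass (adjusted p = 0.648 and 0.562). Of 42 heme, iron and red cell genes 7 were members and 1 was tested, Alas1, which did not pass either (adjusted p = 0.952).

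**Figure D2:**
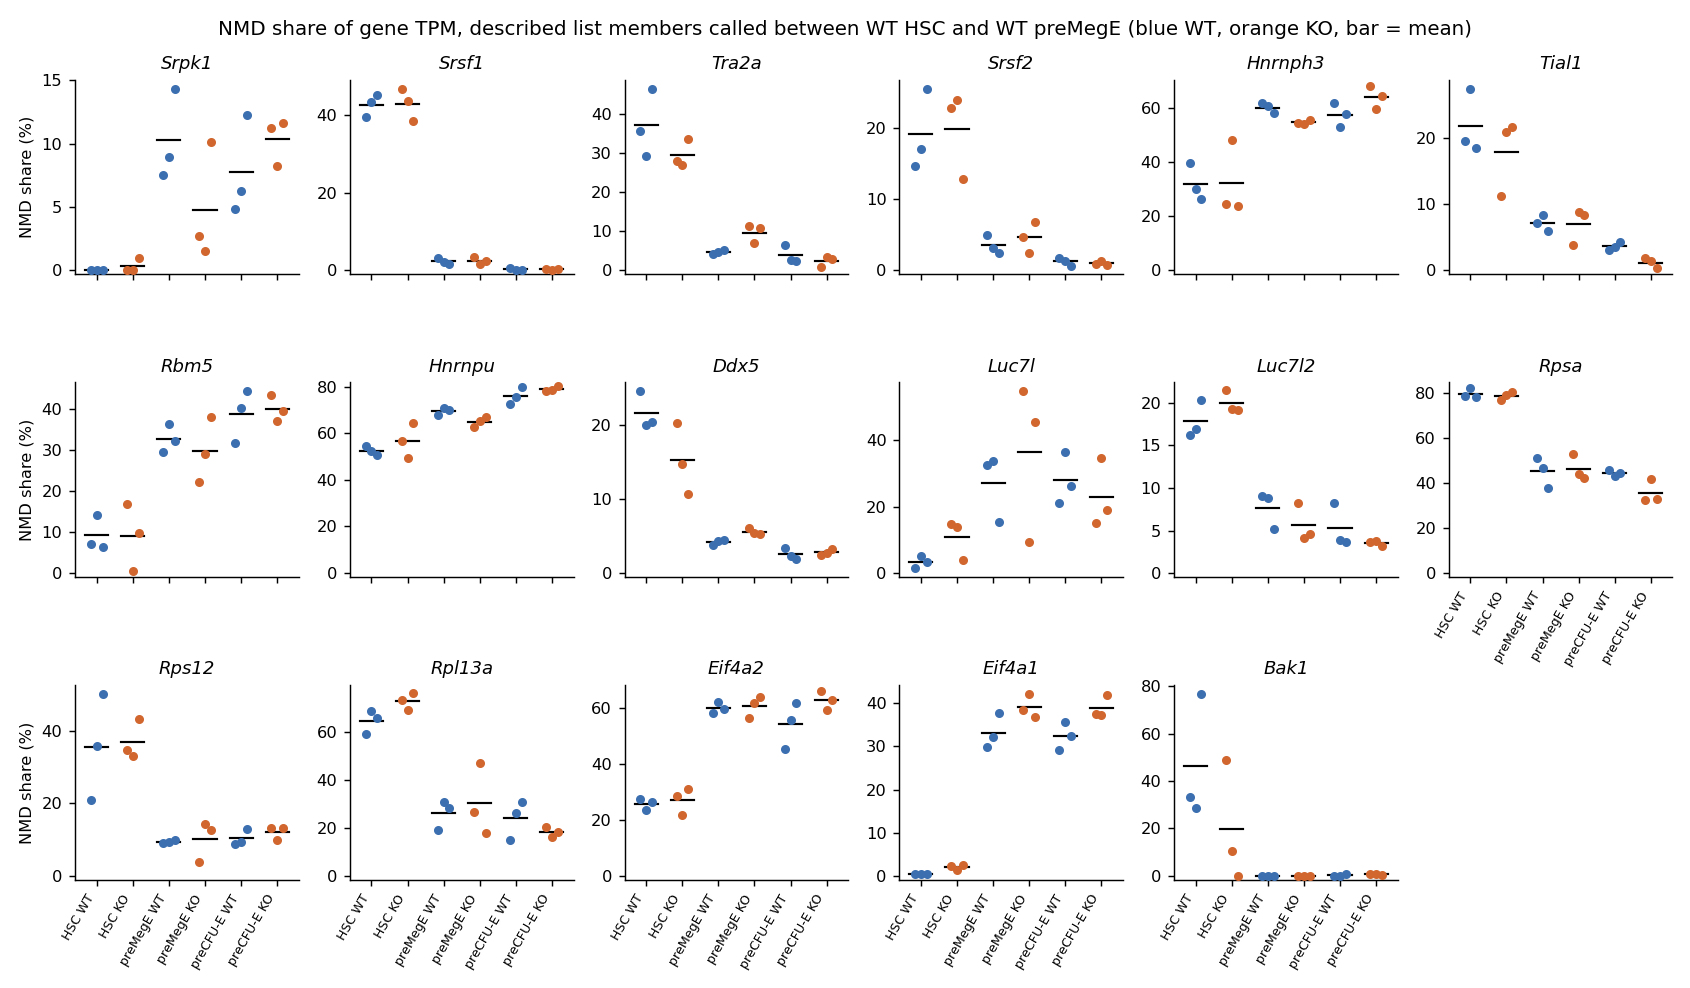
NMD share of gene TPM in percent (vertical axis, scaled per gene) in each of the 18 libraries by group, for the list members described among those called between WT HSC and WT preMegE; blue points are WT, orange points KO and bars the group means. For Srsf1 the HSC libraries sit at 38.5% to 46.8% and the progenitors at 3.47% or less, and for Eif4a1 the HSC libraries sit at 2.42% or less and the progenitors at 29.1% to 42.1%.

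The 6 largest rises were Sra1, Rfx5, Tbc1d17, Tsc1, Ncaph and Becn1. Ncaph, a subunit of condensin, had 0% in all WT HSC libraries and 34.5%, 56.8% and 49.1% in WT preMegE (adjusted p = 0.000941), and its gene count rose by 1.28 on the log2 scale. Rfx5, a transcription factor of MHC class II genes, had 5.903%, 0% and 0% in WT HSC and 53.4%, 56.8% and 51.8% in WT preMegE (adjusted p = 0.00122). WT groups did not overlap in either gene, as the rule for naming members required. However, Rfx5-212 had no word of its own and shared 29.5% of its words with B230398E01Rik. In KO libraries the Ncaph groups overlapped, with up to 37.4% in HSC. Sra1 was uneven in HSC, with 0%, 56.1% and 0% against 71.0%, 73.3% and 80.4% (adjusted p = 0.00537). Tsc1, which restrains the growth kinase mTORC1, rose by 49.5 points, and Becn1, an autophagy protein, by 42.6 points. Becn1 lost its call without HSC WT library 3 or preMegE WT library 3, and Tbc1d17, with 51.1 points, kept it only without HSC WT library 2.

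The 6 largest falls were Cenpt, Llph, Pdf, Ap1ar, Cenps and Bak1. Llph had 70.2%, 68.7% and 68.9% in WT HSC and 18.5%, 7.98% and 4.33% in WT preMegE (adjusted p = 0.000218). Cenpt, a centromere protein, had 67.7%, 75.96% and 79.01% against 11.1%, 2.68% and 9.15% (adjusted p = 0.00623). WT libraries of the 2 populations did not overlap in either gene, as the rule for naming members required. Of the words of Llph-203 47.9% also occur in other genes. In KO libraries Cenpt had 16.5%, 85.03% and 10.5% in HSC and 0%, 19.8% and 4.72% in preMegE, which overlapped, and the step was not called (-29.2 points, adjusted p = 0.0517). Bak1, a pore-forming protein of apoptosis, had 33.4%, 28.8% and 76.6% in WT HSC and 0% in all 3 WT preMegE libraries (adjusted p = 0.00114), while its gene count rose by 0.70 on the log2 scale. Ap1ar and Cenps, another centromere protein, had differences of -51.6 and -48.4 points and lost their calls without preMegE WT library 3. Pdf, mitochondrial peptide deformylase, had a difference of -54.96 points on 10.5 to 68.2 estimated reads of the gene per WT HSC library, and 50.6% of the words of Pdf-202 also occur in other genes.

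NMD transcripts and total gene counts were compared for the called members. Of the 122 members whose share fell, 120 had a lower mean NMD TPM in WT preMegE, while 76 of the genes were called higher in total count by edgeR and 8 lower. Of the 96 whose share rose, 93 had a higher mean NMD TPM, and 54 of the genes were called higher and 7 lower. NMD TPM is the numerator of the share by which members were called, so its direction is not independent of the call. Over all 2083 member genes 1195 were called higher and 201 lower in this step, beside 53.7% of all genes tested (25.5% higher and 28.2% lower). The median log2 change was 0.564 for member genes and -0.431 for all genes tested. Members were taken by mean TPM over libraries that are mostly from progenitors, which favours genes high in progenitors. The part of this rule in the splits between higher and lower counts was not tested.

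The step in KO libraries uses other samples. There 211 members were called, 90 higher and 121 lower, beside 28.9% of all rows (2.99% higher and 25.9% lower). Of the 218 WT calls 197 had a KO difference of the same sign and 18 of the other sign. In 96 the step was called in the same direction in KO, which is 44.0% of the WT calls and 45.5% of the KO calls, and in 0 it was called the other way. In KO libraries the difference was -40.5 points for Srsf1 (adjusted p = 1.77e-06), 37.01 for Eif4a1 (adjusted p = 7.23e-07) and -56.96 for Llph (adjusted p = 0.000367). For Tsc1 it was 15.3 points (adjusted p = 0.489) and for Cenps 0.069 points (adjusted p = 0.73).

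**Figure D3:**
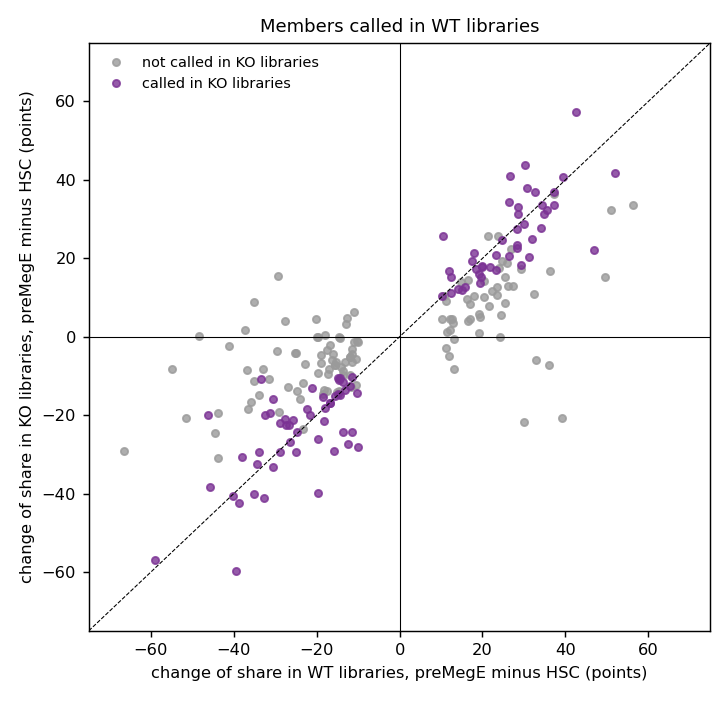
Difference of the NMD share from HSC to preMegE in WT libraries (horizontal axis) and in KO libraries (vertical axis), in percentage points, for the 218 members called in WT. Each point is a gene, purple where it was also called in KO, and the dashed line marks equal difference; 197 points have the same sign on both axes.

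From WT preMegE to WT preCFU-E 1 member was called, 0.0718% of those tested beside 0.0786% of all rows, with 69 at an unadjusted p below 0.05. This was Casp12, an inflammatory caspase, on almost no RNA: its gene had 0 to 1 estimated reads per WT preCFU-E library, and the fit dropped the 2 of these 3 libraries in which no share could be formed. For members called in the step before, values in both progenitors stand side by side here. Eif4a1 had 33.2% ± 4.05 in WT preMegE and 32.4% ± 3.26 in WT preCFU-E, and Rpsa 45.2% ± 6.77 and 44.4% ± 1.37. Srsf1 had 2.42% ± 0.792 and 0.308% ± 0.227 (adjusted p = 0.375).

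The comparison of KO with WT asks which NMD transcripts differ between the genotypes. Ptbp1 RNA was lower in KO but not absent, with means of 98.1 CPM in KO and 208 CPM in WT HSC. In HSC 8 members rose and 5 fell, 0.934% of those tested beside 0.707% of all rows (0.393% higher and 0.314% lower), a share near the background. With shares of estimated counts in place of TPM 4 rose and 5 fell. No member of the splicing, NMD, ribosomal, translation, heme or reported-target lists was called between KO and WT in any population. The main fit takes its spread from all 18 libraries, so its p-values for HSC also rest on progenitor libraries. With HSC libraries fitted alone no member was called, and the adjusted p of the 13 was then 0.617 or more. By edgeR's diffSpliceDGE, a test on counts, only Cdc6, Ahctf1, Ppp2r2d and Ndufs6 of the 13 stayed called. Abhd11 did not (diffSpliceDGE adjusted p = 0.138). The count was 27 without WT library 1, 22 without WT library 3, 29 without KO library 1 and 27 without KO library 3.

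Abhd11, a mitochondrial hydrolase, had 8.67%, 2.04% and 1.79% in WT HSC and 43.4%, 44.5% and 30.9% in KO HSC (35.4 points, logit 2.68, SE 0.365, adjusted p = 0.00444). All of its progenitor libraries were at 7.95% or less. The gene had 144.4 to 219.6 estimated reads per WT HSC library and 95.3 to 187.9 per KO HSC library. Of the words of Abhd11-204, its main NMD transcript, 4.14% were in no other transcript and 15.1% also occur in Gm43372. Cdc6, which loads the replicative helicase, had 0.319%, 1.10% and 0.967% in WT HSC and 37.7%, 34.2% and 8.15% in KO HSC (adjusted p = 0.00611). KO library 3 was the low one, and it lay above all WT HSC libraries, as the rule for naming members required. Vkorc1l1, a vitamin K epoxide reductase, had 7.68%, 1.92% and 0% against 21.6%, 23.6% and 20.1% (adjusted p = 0.032). Ahctf1, a nuclear pore and chromatin protein, rose from 3.76% ± 3.36 to 19.8% ± 5.47 and Atp9b, a putative phospholipid flippase, from 13.2% ± 6.54 to 39.5% ± 5.26.

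The other rises were Gtpbp10, a mitochondrial GTPase, by 23.8 points, Fam118b by 18.8 and 1700037H04Rik by 14.6. Fam118b varied among KO libraries, with 3.98%, 16.99% and 36.9%, and the end of its reading frame is printed above with that of 1700037H04Rik. Leaving out HSC WT library 2, or HSC KO library 2, ended the calls of Atp9b, Gtpbp10, Fam118b, Vkorc1l1, Ahctf1 and 1700037H04Rik. Without HSC KO library 1 Atp9b, Gtpbp10 and 1700037H04Rik were lost, and without HSC WT library 3 Gtpbp10, Fam118b and Vkorc1l1.

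Of the falls, Ppp2r2d, a regulatory subunit of protein phosphatase 2A, had 49.9%, 17.4% and 50.9% in WT HSC and 1.57%, 0% and 1.51% in KO HSC (-38.4 points, adjusted p = 0.018). Ndufs6, a subunit of respiratory complex I, had 46.2%, 61.1% and 12.6% against 0%, 0% and 6.304% (adjusted p = 0.0182). Groups did not overlap in either gene, as the rule for naming members required, and WT libraries varied widely. Mpp1, a membrane scaffold protein of red cells, had 13.1%, 24.4% and 6.301% in WT HSC and 0% in all KO HSC libraries (adjusted p = 0.00611). Its progenitor libraries were at 2.69% or less. Ddhd2, a lipase, fell from 30.5% ± 12.01 to 5.51% ± 3.28 and Atxn2, an RNA-binding protein, from 13.2% ± 3.84 to 0.847% ± 0.734. Mpp1 lost its call without HSC WT library 2, and Atxn2 without HSC WT library 1 or 2 or HSC KO library 2. None of the 13 genes passed the test on its total count; edgeR adjusted p ran from 0.154 for Ppp2r2d to 0.978 for Mpp1.

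**Figure D4:**
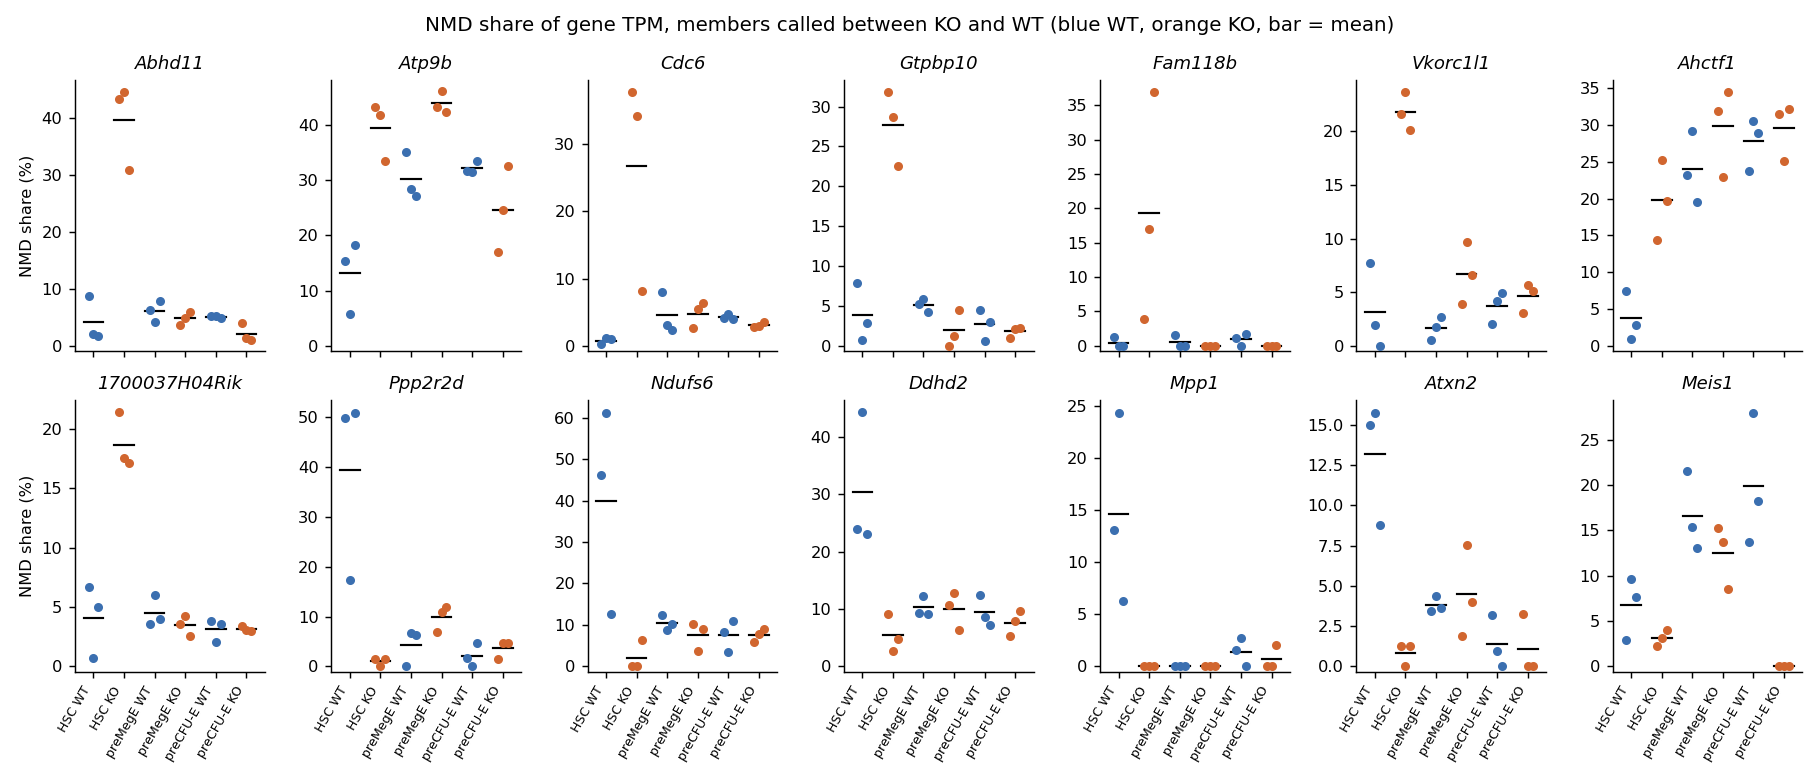
NMD share of gene TPM in percent (vertical axis, scaled per gene) in each of the 18 libraries by group, for the 13 members called between KO and WT HSC and for Meis1, called in preCFU-E; blue points are WT, orange points KO and bars the group means. For Abhd11 the KO HSC libraries sit at 30.9% to 44.5% and all other libraries at 8.67% or less.

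In preMegE limma called no member between KO and WT, with 49 at an unadjusted p below 0.05 and 0.0131% of all rows called, and edgeR's diffSpliceDGE called 0. Limma called 1 without preMegE KO library 1 or 3. In preCFU-E 1 of 1390 members tested was called, 0.0719% beside 0.0524% of all rows, with 42 at an unadjusted p below 0.05; the count was 2 without preCFU-E WT library 1 or 2. This was Meis1, a homeobox transcription factor of stem cells, with 13.7%, 27.98% and 18.2% in WT preCFU-E and 0% in all 3 KO libraries (adjusted p = 0.000429). The gene was low there, at 2.62 ± 0.445 TPM in WT and 1.95 ± 0.586 TPM in KO. Meis1 was not called with preCFU-E libraries alone (adjusted p = 0.0745) or by diffSpliceDGE, and was not tested where the gene had to reach 5 TPM in each group compared.

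Tests of the difference in KO effect between populations called 2 members, both between preCFU-E and HSC, 0.144% beside 0.0786% of all rows (0.0262% higher and 0.0524% lower). The difference was -38.4 points for Abhd11 (adjusted p = 0.0252) and -16.3 points for Meis1 (adjusted p = 0.0466). Between preMegE and HSC limma called 0 members, beside 0.0393% of all rows, with 122 at an unadjusted p below 0.05 and 14 called by diffSpliceDGE. Between preCFU-E and preMegE it called 0, beside 0.0131%, with 35 at an unadjusted p below 0.05 and 0 called by diffSpliceDGE.

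Of 6 genes listed as reported targets of PTBP1 or PTBP2 with a decay outcome, 5 were members and 3 of these were tested; none of the 3 was called between KO and WT. The share of Ptbp2, the relative of PTBP1 active in neurons, was 5.75%, 9.42% and 14.4% in WT preCFU-E and 6.28%, 0% and 1.87% in KO (-7.14 points, adjusted p = 1). These groups overlapped, as they did in HSC and preMegE. The count of the Ptbp2 gene rose in KO in HSC (55.97 CPM in WT, 115 in KO), preMegE (17.8 and 82.7 CPM) and preCFU-E (10.04 and 139 CPM), with log2 changes of 1.04, 2.22 and 3.78 (edgeR adjusted p = 0.00583, 3.45e-07 and 8.68e-11). Dlg4, a synaptic scaffold gene, had 10.2%, 12.4% and 0% in WT and 0% in all KO preCFU-E libraries (adjusted p = 1). Bak1 had 49.01%, 10.6% and 0% in KO HSC, overlapping the WT HSC values (adjusted p = 0.262). Ptbp3 and Gabbr1 had mean shares under 2% and were not tested.

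Few member genes changed in total count between KO and WT. In HSC 20 did by edgeR, 8 higher and 12 lower, beside 0.844% of all genes tested (0.385% higher and 0.459% lower); with RLE size factors the split was 8 and 7. The count was 39 without HSC KO library 1, 66 without KO library 3, 10 without WT library 2 and 11 without WT library 3. In preMegE 4 did, beside 0.0603% (0.0371% higher and 0.0232% lower): Ptbp2 and Atat1, the tubulin acetyltransferase, rose and Necap2 and Pgm2 fell, and 2 were called without preMegE WT library 2. In preCFU-E 9 did, beside 0.153% (0.0788% higher and 0.0742% lower): Ptbp2, Atat1, Gabbr1 and Mdga1 rose and Necap2, Pgm2, Lrrcc1, Iqgap1 and Flna fell. Necap2, Pgm2 and Gabbr1 had mean NMD shares under 2%, so their shares were not tested, and the others named here for preMegE and preCFU-E were not called in their share in the same comparison. Necap2, an endocytic protein, had NMD shares of 0% to 2.52% in the 18 libraries while the log2 change of its count was -1.22 in preCFU-E (edgeR adjusted p = 0.00283). Flna, an actin crosslinker, had NMD shares of 15.9%, 15.96% and 9.36% in WT and 0%, 32.1% and 38.1% in KO preCFU-E, so the groups overlapped.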

How the data were processed

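Total RNA of sorted cells was amplified with the Ovation RNA-Seq System and sequenced, per the labels' protocols. The authors deposited, per library, an estimated count and the TPM of each transcript; Salmon 0.12.0 and a mouse build are named per the submitters' processing notes, while its transcript index and settings were not given in the sources used here. Of 136288 transcripts 136176 matched GENCODE M21 by identifier.

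Shares were computed from TPM and tested on the scale logit((share + 0.01) / (1 - share + 0.01)) with limma 3.58.1 (robust) in R 4.3.3, on all 18 libraries with 6 group means, at mean shares of 2% to 98%, with Benjamini-Hochberg adjustment over up to 7638 rows of NMD, retained-intron and processed transcripts. A library in which a gene had 0 TPM was left out of that row; 4 member genes were affected. Counts summed per gene and rounded were tested with edgeR 4.0.16 (quasi-likelihood, TMM); DESeq2 1.42.0 was an alternative. The fits were tested on simulated data. Alternatives changed offsets, filters, denominators, libraries and tools. Named were members called with groups not overlapping, the 10 largest rises and falls per KO comparison and 6 per WT step, with called list members, the highest shares and genes called in total count. Members and lists were chosen with earlier results of these data known. Strand was not used, so antisense overlaps cannot be told apart. Intron sequences were not used here, and some members that the naming rule took are not reported here.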

Additional observations from a re-analysis of the deposited data

Results flagged for a closer look

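The KO effect on the NMD share of Abhd11 differed between preCFU-E and HSC by -38.4 points in limma's test of that difference (adjusted p = 0.0252). The share was 4.16% ± 3.902 (SD, n = 3) in WT and 39.6% ± 7.57 in KO HSC, and 5.08% ± 0.163 in WT and 2.096% ± 1.61 in KO preCFU-E. The Abhd11 gene had 144.4 to 219.6 estimated reads per WT HSC library and 95.3 to 187.9 per KO HSC library. Only 4.14% of the words of Abhd11-204 were its own. The KO effect on Meis1 differed by -16.3 points (adjusted p = 0.0466). Its share was 6.75% ± 3.45 in WT and 3.12% ± 0.835 in KO HSC, and 19.96% ± 7.31 in WT and 0% in all KO preCFU-E libraries.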

How the results depend on the processing

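Of 840 values of named members under alternatives, over 44 members and comparisons, 709 kept direction and call, 130 kept only the direction and 1 reversed: Cenps between HSC and preMegE was 0.069 points with KO in place of WT libraries, an alternative chosen after seeing the data, as was 5 TPM in each group. Casp12 has no value without preCFU-E WT library 2. Counts of members called are given next, and the cause of each shift was not tested. HSC KO against WT (13): 6 with an offset of 0.001, 6 at 20 TPM, 0 with HSC alone, 20 by diffSpliceDGE, and 13 to 29 with a library left out. Of the 13, the 20 include only Cdc6, Ahctf1, Ppp2r2d and Ndufs6. PreMegE KO (0): 1 at 5 TPM, 2 alone, 0 to 1 left out. PreCFU-E KO (1): 2 at 5 TPM, 2 with count shares, 0 alone, 0 by diffSpliceDGE, 0 at 5 TPM in each group, 1 to 2 left out. WT HSC to preMegE (218): 142 to 221 left out. WT preMegE to preCFU-E (1): 2 at 5 TPM, 0 at 20 TPM, 0 alone, 0 at 5 TPM in each group, 1 to 1 left out. Difference in KO effect, preMegE minus HSC (0): 1 with an offset of 0.001, 3 with 0.05, 2 at 5 TPM, 1 with count shares, 1 alone, 14 by diffSpliceDGE, 0 to 8 left out (8 without HSC WT library 2). PreCFU-E minus preMegE (0): 1 with an offset of 0.001, 1 at 5 TPM, 1 at 20 TPM, 1 without a share filter, 1 alone, 0 to 1 left out. PreCFU-E minus HSC (2): 1 with an offset of 0.05, 1 at 20 TPM, 1 with a variance trend, 1 alone, 1 at 5 TPM in each group, 9 by diffSpliceDGE, 0 to 8 left out (8 without HSC KO library 1). Member genes called in total count, HSC (20): 37 without a count filter, 0 alone, 67 by DESeq2, 10 to 66 left out. PreMegE (4): 7 without a count filter, 10 by DESeq2, 2 to 4 left out. PreCFU-E (9): 56 alone, 16 by DESeq2, 6 to 9 left out. Correlations of same-numbered WT and KO libraries were near 0, from -0.0307 to 0.0513. In preMegE each exceeded the highest correlation with another number, and in HSC and preCFU-E none did. Whether replicate numbers pair samples is therefore not known. With the replicate block 2 members were called in HSC KO, 0 in preCFU-E minus HSC, 212 from HSC to preMegE (numbers taken across populations) and 10 genes in total count in HSC. With 3 libraries per group and short, shared sequences, shares of low genes are limited by depth.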

Other observations

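Other abundant NMD transcripts came from genes of protein folding and translation. Ppia-201, from the gene of cyclophilin A, a prolyl isomerase, had a mean of 326 TPM over 18 libraries. The share of Ppia was 69.5%, 70.3% and 67.9% in WT HSC, 43.5%, 34.5% and 28.1% in WT preMegE and 37.4%, 30.8% and 20.8% in WT preCFU-E. Eef1b2-205, from the gene of a translation elongation factor subunit, had a mean of 312 TPM, and the share of Eef1b2 was 39.2% ± 4.899 (SD, n = 3) in WT HSC and 53.8% ± 1.82 in WT preMegE, 14.6 points apart (adjusted p = 0.0543). Of the 31-base words of Ppia-201 87.3% also occur in transcripts of other genes.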
